A study of Mus musculus with 8 samples.

Results

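Interferon-stimulated genes are the genes that cells switch on when interferon binds its receptor. A list of 47 of them was followed across 8 one-colour Affymetrix arrays of mouse CD8 T cell cultures. The list was chosen by gene name, with earlier results of these data known. Of the 47, 45 had a probe set that names them alone, and 43 of those were bright enough to be tested among 12520 genes. The probe sets for Mx2 and Ifi204 were too dim and are given by level only, and the expression of Isg15 and Ifi44 was not analysed here.

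CD8 T cells were taken from spleens of C57BL/6 mice by magnetic positive selection. They then spent 18 h in culture with bone marrow-derived dendritic cells, with 10 T cells for each of these. In the WT - UN group, wild-type T cells met dendritic cells without peptide. In WT - N4, wild-type T cells met dendritic cells carrying SIINFEKL, a peptide of ovalbumin called N4. PKC theta KO - N4 and p50 cRel DKO - N4 were cultured with peptide in the same way, from mice lacking protein kinase C theta or lacking both p50 and cRel. No knockout culture without peptide is among these arrays, so a knockout effect at rest cannot be read. Dendritic cells were then removed by selection for CD11c, and 100 ng of total RNA from the remaining T cells was labelled. Each group has 2 arrays, numbered 1 and 2. The labels do not give the age or sex of the mice, the kind of knockout, a T cell receptor transgene, or whether the 2 arrays came from separate mice, so p-values measure only the spread between these arrays, which may be technical.

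Type I interferons, which include interferon alpha and beta, bind the receptor chains IFNAR1 and IFNAR2 and activate the kinases JAK1 and TYK2. These phosphorylate STAT2, which acts with IRF9 in a complex that binds the interferon-stimulated response element, a DNA sequence in the promoters of many of these genes. Interferon gamma, which activated CD8 T cells secrete, acts mainly through a different element called GAS. Protein kinase C theta carries signals from the T cell receptor towards NF-kappaB, the transcription factor family to which p50 and cRel belong.

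Promoter sequences are shown for 4 of the genes on which the results turn. They are the 250 bases upstream of a listed start, written 5′ to 3′ on the strand of the gene, from RefSeq on GRCm38.p6. Capitals mark an ISRE-type match, defined as GAAA, any 2 bases and GAAA again, searched on both strands, so that a match on the opposite strand reads as TTTC, any 2 bases and TTTC. Ifit1bl1, Ifit3 and Ifi213 are shown because they were higher in p50 cRel DKO - N4 than in both other peptide groups. Igtp is shown because it was higher with peptide, against the direction of most of the genes.
Ifit1bl1 at chr19:34601969-34602218, minus strand: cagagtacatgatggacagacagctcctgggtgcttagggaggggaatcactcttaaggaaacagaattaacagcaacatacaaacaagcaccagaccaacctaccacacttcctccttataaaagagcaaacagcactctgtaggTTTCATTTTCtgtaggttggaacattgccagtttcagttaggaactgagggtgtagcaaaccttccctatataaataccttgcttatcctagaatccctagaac
Ifit3 at chr19:34583279-34583528, plus strand: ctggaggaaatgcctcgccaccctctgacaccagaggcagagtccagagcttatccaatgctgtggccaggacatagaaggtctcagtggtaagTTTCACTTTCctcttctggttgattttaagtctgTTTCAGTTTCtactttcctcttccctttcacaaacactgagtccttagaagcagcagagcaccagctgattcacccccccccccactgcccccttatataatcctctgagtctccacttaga
Ifi213 at chr1:173599273-173599522, minus strand: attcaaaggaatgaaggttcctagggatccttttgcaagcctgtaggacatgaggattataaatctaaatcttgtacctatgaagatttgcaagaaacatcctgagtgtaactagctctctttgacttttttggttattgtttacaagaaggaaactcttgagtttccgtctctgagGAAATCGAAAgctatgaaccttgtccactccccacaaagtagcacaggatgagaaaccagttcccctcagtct
Igtp at chr11:58199306-58199555, plus strand: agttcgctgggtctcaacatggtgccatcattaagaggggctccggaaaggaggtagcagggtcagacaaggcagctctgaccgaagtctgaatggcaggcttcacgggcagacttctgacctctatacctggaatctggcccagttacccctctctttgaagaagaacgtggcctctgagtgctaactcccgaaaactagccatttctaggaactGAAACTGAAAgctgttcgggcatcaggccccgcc

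Among the 47 genes, 35 had a promoter in the RefSeq table, Isg15 and Ifi44 included, and 16 of these 35 (45.7%) held the ISRE-type match in that window. The match was present in 936 of 27025 genes with a promoter in the table (3.46%). In Ifit3 it occurred at 2 places, and in Ifi213 and Igtp at 1 place each. Ifit1bl1 has 2 listed starts, each with 1 match; the start further upstream is shown. A GAS-type sequence, TTCNNNGAA, whose letters read the same on both strands and which was added to the search after the expression values were seen, was present in 6 of the 35 (17.1%) and in 8.13% of all genes with a promoter. In the Igtp window shown above it lies shortly before the ISRE-type match and does not overlap it. A match of letters describes the sequence and does not show that a factor bound there.

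Expression is given as log2(signal + 16), where the signal is the brightness the authors deposited, so a difference of 1 is a change of 2-fold on that scale and small signals are compressed. Differences are between group means of 2 arrays, each with its standard error (SE), from a limma fit over all 8 arrays, and p-values were adjusted over all 12520 genes by the Benjamini-Hochberg method at a threshold of 0.05. A probe set's brightness depends on its probes, so levels are compared between arrays and never between genes.

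Of the targeted genes, Rel and Prkcq were examined by their level on each array. The gene encoding p50 was not examined. Rel, which encodes cRel, was at 6.19 and 5.92 in p50 cRel DKO - N4 and between 8.97 and 10.09 on the other 6 arrays. Prkcq, which encodes protein kinase C theta, was at 11.00 and 10.75 in PKC theta KO - N4 and between 11.30 and 11.90 elsewhere, a small gap; the labels do not say which part of the gene was deleted. T cell markers were present, with Cd8a between 11.15 and 13.29 on all 8 arrays. They were not level across groups: with peptide in wild-type cultures 3 of 7 rose (Cd8a by 1.07, Thy1 by 0.75 and Cd247 by 0.67). None fell, while 17.2% of all genes rose and 23.5% fell. Against WT - N4 all 7 were higher on average in PKC theta KO - N4, beside 46.5% of all genes. In p50 cRel DKO - N4 5 of 7 were higher, beside 49.6%, and none passed in either knockout. In PKC theta KO - N4 both arrays lay above both of WT - N4 in 5 of 7, against 11.5% of all genes. In p50 cRel DKO - N4 both lay above in 4 of 7 and below in 1, each against 15.3%. The part of these shifts in the results was not tested. The Y-linked genes Eif2s3y, Kdm5d and Uty were high on the 4 wild-type arrays (8.87 or above) and low on the 4 knockout arrays (6.72 or below), and Xist was between 12.27 and 12.57 on the knockout arrays, at 5.18 and 6.65 in WT - N4 and at 6.05 and 11.84 in WT - UN. Genotype and this difference in sex-linked genes cannot be told apart. The WT - UN array with Xist at 11.84, replicate 2, also had high Y-linked genes (Eif2s3y at 10.65), so the 2 WT - UN arrays were not alike in Xist. The part of this in the comparisons with WT - UN was not tested.

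Most of the interferon-stimulated genes were lower in wild-type cultures with peptide than without. Of the 43 tested, 35 fell and 2 rose in WT - N4 against WT - UN, and 6 did not pass. Over all genes tested, 23.5% fell and 17.2% rose. The median difference over the 43 was -1.95, against -0.10 over all genes. Of the 35 that fell, 32 fell by at least 2-fold and 9 by at least 8-fold.

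**Figure D1:**
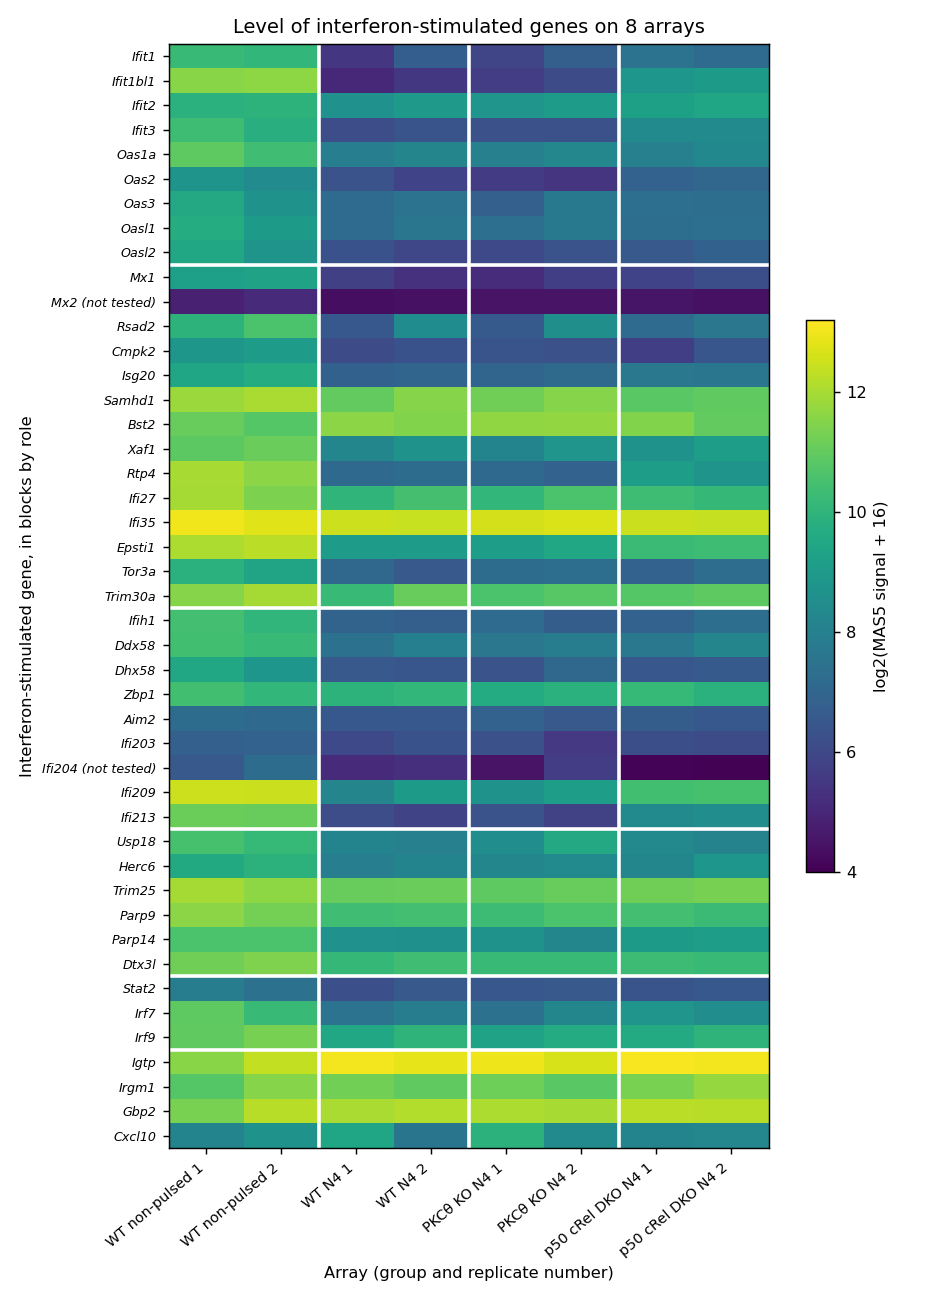
Levels of the interferon-stimulated genes on each of the 8 arrays, as log2(signal + 16) in colour; rows are the 45 genes with a probe set, in blocks by role, and columns are arrays by group, with WT - UN marked as WT non-pulsed. Most genes are brightest in the 2 WT - UN columns, and in p50 cRel DKO - N4 Ifit1bl1 (8.84 and 9.0) and Ifit3 (8.39 and 8.40) lie above both other peptide groups.

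The IFIT proteins bind foreign RNA, and the OAS enzymes make the messenger that activates the RNA-degrading enzyme RNase L. All 9 of these family members tested fell with peptide. Ifit1bl1, a relative of Ifit1, read 11.56 and 11.65 in WT - UN and 5.03 and 5.49 in WT - N4. No arrays of the groups overlapped, and its difference of -6.34 (SE 0.25, n = 2 and 2, limma adjusted p = 6.28e-06) was the lowest among the 43. Its WT - N4 mean of 5.26 lay under the 5.38 that a probe set's mean over 8 arrays had to reach to be tested. Ifit1 read 10.25 and 10.08 without peptide and 5.44 and 6.75 with it, a fall by 4.06 on the log2 scale (SE 0.44). Ifit3 fell by 3.78 on the log2 scale (SE 0.24), from 10.36 and 9.79 to 6.19 and 6.39. In this family the smallest fall was that of Ifit2, by 1.11 on the log2 scale. The OAS genes Oas1a, Oas2, Oas3, Oasl1 and Oasl2 differed by between -2.98 and -1.75.

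Among the other antiviral effectors, 12 of 13 fell and 1 rose. Rtp4, a chaperone for membrane receptors that is strongly interferon-induced, read 11.98 and 11.60 without peptide and 7.14 and 7.24 with it, a fall by 4.60 on the log2 scale (SE 0.22, limma adjusted p = 9.66e-06). Mx1, a gene of a GTPase family, read 9.18 and 9.29 without peptide and 5.75 and 5.31 with it. Epsti1, an interferon-induced gene, fell by 3.08 on the log2 scale (SE 0.17), from 12.06 and 12.24 to 9.09 and 9.04. Rsad2, which encodes viperin, was the least even of this group within WT - N4, at 6.54 and 8.48, against 9.96 and 10.60 without peptide. Its difference of -2.77 (SE 0.72, limma adjusted p = 0.0147) passed, but not without WT - N4 replicate 1 or without WT - UN replicate 2. Tor3a, an ATPase of the torsin family, also fell by 2.77 on the log2 scale with less spread (SE 0.28). Samhd1, which degrades the building blocks of DNA, and Ifi35 fell least, with differences of -0.67 and -0.39. Other Samhd1 probe sets differed by -0.62 to -1.95. Samhd1 did not pass with centring, without WT - N4 replicate 1 or without WT - UN replicate 2. Ifi35 did not pass with centring, without the filter, with probe sets averaged, with only the compared arrays, or without WT - UN replicate 1 or either array of WT - N4. Mx2, below the filter, was at 4.84 and 5.14 without peptide and 4.33 and 4.42 with it.

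Bst2, which encodes tetherin, a protein that holds budding viruses at the cell surface, was the effector that rose. It read 11.05 and 10.77 in WT - UN and 11.62 and 11.47 in WT - N4, a difference of 0.63 (SE 0.18, limma adjusted p = 0.0202). The groups did not overlap. Without WT - N4 replicate 1, or without WT - UN replicate 2, Bst2 did not pass the threshold.

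Of the sensors of viral nucleic acid, 5 of 8 fell and none rose. The RNA sensors of the RIG-I family all fell: Ifih1, which encodes MDA5, by 3.41 on the log2 scale (SE 0.27), Ddx58, which encodes RIG-I, with a difference of -2.58, and Dhx58, which encodes LGP2, with -2.65. Ifih1 read 10.46 and 10.07 without peptide and 6.93 and 6.78 with it. Ifi213 and Ifi209 belong to the AIM2-like receptor family, a gene cluster on chromosome 1. Ifi213 read 11.14 and 11.07 without peptide and 6.17 and 5.87 with it, a difference of -5.08 (SE 0.24, limma adjusted p = 9.66e-06). Ifi209 read 12.49 and 12.47 without peptide and 8.18 and 9.01 with it, a difference of -3.88 (SE 0.26). For both genes the gap between groups was far wider than the gap between arrays of a group. The DNA sensors Aim2 (-0.66, limma adjusted p = 0.0715) and Zbp1 (-0.24) and the AIM2-like gene Ifi203 (-0.68) did not pass. The other Zbp1 probe set differed by -1.17, and Zbp1 passed with the mean over the probe sets of each gene. Aim2 passed when the replicate number was added as a block. Ifi204, below the filter, was at 6.56 and 7.27 without peptide and at 5.10 and 5.23 with it.

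The 6 genes of the ISG15, ubiquitin and ADP-ribose systems that were tested all fell. Usp18, which removes ISG15 from proteins and dampens the interferon receptor, read 10.51 and 10.18 without peptide and 8.14 and 8.0 with it, a fall by 2.28 on the log2 scale (SE 0.31). Parp14, an ADP-ribosyltransferase, differed by -1.95, and Herc6, the main mouse ligase for ISG15, by -1.69. Parp9 and its partner Dtx3l differed by -1.02 and -1.07, and Trim25, a ubiquitin ligase acting on RIG-I, by -0.73. A further Trim25 probe set differed by 0.12, in the opposite direction, and Trim25 did not pass with centring.

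All 3 transcription factors fell. Irf7, the factor that amplifies interferon alpha production, read 10.91 and 10.23 without peptide and 7.50 and 7.86 with it, a difference of -2.89 (SE 0.32, limma adjusted p = 0.000241). Irf9, the DNA-binding partner of STAT2, fell by 1.37 on the log2 scale, from 10.94 and 11.30 to 9.52 and 9.97. Stat2 fell by 1.26 on the log2 scale, from 7.88 and 7.44 to 6.25 and 6.56; it did not pass with quantile normalization or without WT - UN replicate 1. In all 3 genes the arrays with and without peptide were separate.

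Of the interferon-inducible GTPases and the chemokine, 1 of 4 rose and none fell, beside 17.2% and 23.5% over all genes, so this count is too small to set the group apart. Igtp, a GTPase acting on the vacuoles of intracellular parasites, read 11.55 and 12.35 without peptide and 13.03 and 12.85 with it, a difference of 0.99 (SE 0.24, limma adjusted p = 0.0105). The rise did not pass without WT - N4 replicate 1. Irgm1 (-0.04) and Gbp2 (0.32), GTPases of the same kind of defence, did not pass, though Gbp2 did without WT - UN replicate 2. Cxcl10, a chemokine that attracts T cells, read 8.14 and 8.73 without peptide and 9.40 and 7.57 with it, so its spread within WT - N4 was wider than its difference of 0.05.

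**Figure D2:**
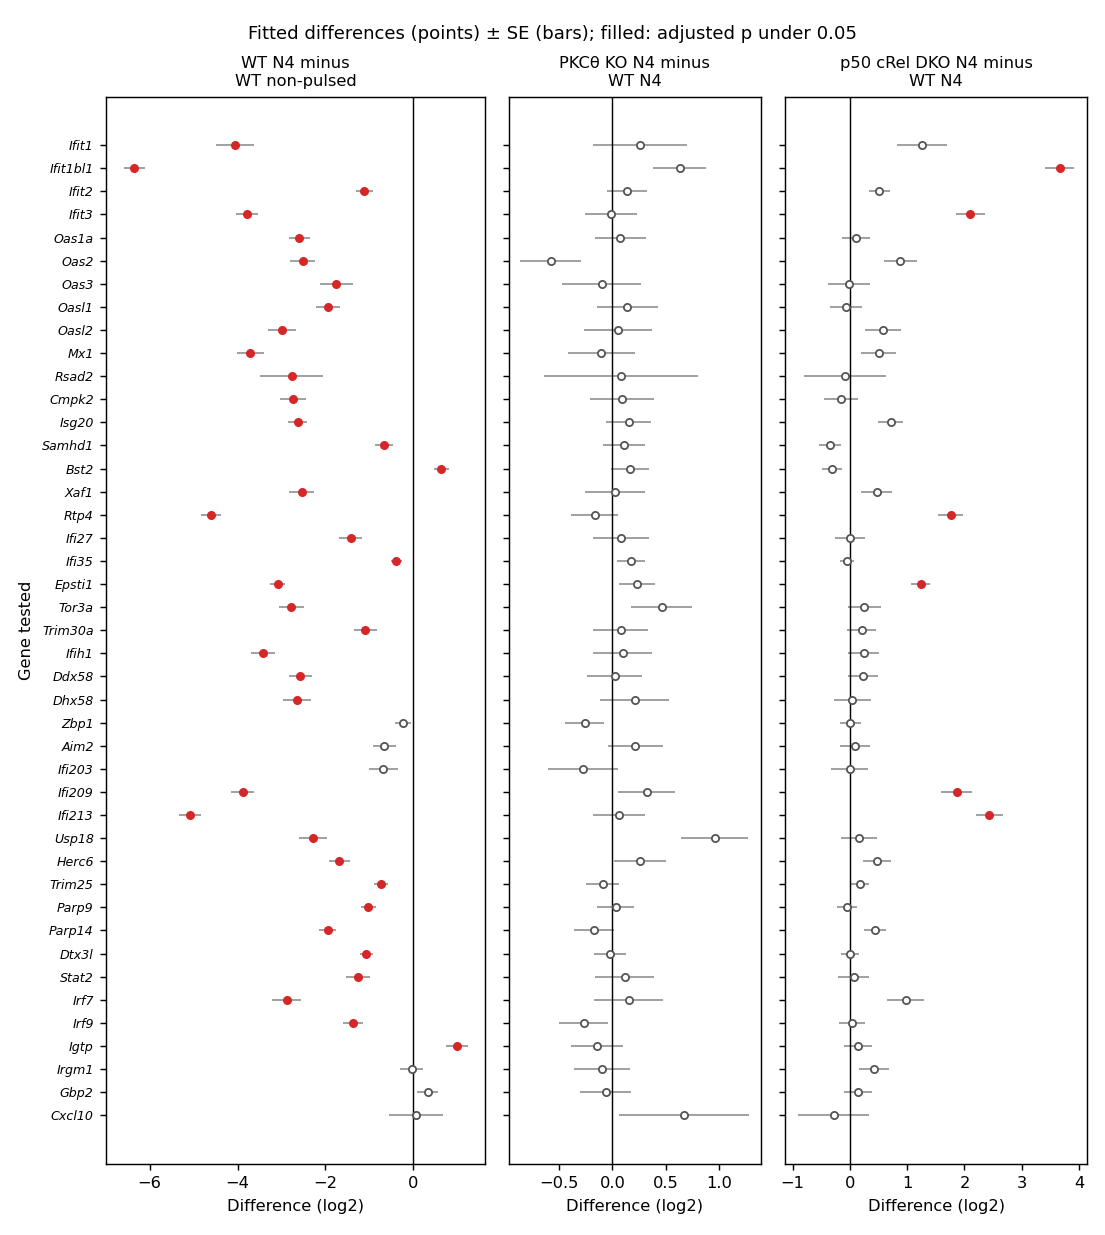
Differences in log2(signal + 16) for the 43 genes tested, in WT - N4 minus WT - UN and in each knockout with peptide minus WT - N4, on axes of different range; bars are the SE, filled points passed the limma threshold of 0.05 and open points did not. In WT - N4, 35 lie below 0 and passed; against WT - N4, 6 rose in p50 cRel DKO - N4 and 0 passed in PKC theta KO - N4.

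Markers of other blood cells moved with peptide too. The summed signal of B cell markers was 40135 to 58044 in WT - UN and 836 to 3301 in WT - N4, and 12 of 12 tested fell. The dendritic cell and macrophage markers summed to 61409 to 76689 and to 5155 to 9310, and 10 of 13 fell. Neutrophil markers summed to 24000 to 26670 and to 314 to 902, and 7 of 7 fell. Pax5 of the B cell list, Flt3 of the dendritic cell list and Camp of the neutrophil list averaged under 5.38 in every peptide group. They reached that filter level through WT - UN, with means of 7.34, 6.77 and 8.45. For such genes the filter itself favours a fall. The summed signal of the plasmacytoid dendritic cell markers, a cell type known for interferon production, was 24111 to 28828 and 9036 to 12824, with 5 of 7 lower and 1 higher. NK cell markers fell in 2 of 4, Tyrobp (mean 12.71 without peptide and 7.39 with it) and Fcer1g (12.76 and 8.55). Eomes (8.65 and 8.42) and Klre1 (7.33 and 6.93) did not pass. Over all genes tested, 23.5% fell and 17.2% rose. Clec10a of the dendritic cell list, Ltf and Cxcr2 of the neutrophil list, and Ncr1 and Klra8 of the NK list were measured but too dim to test. In comparison, the interferon-stimulated genes summed to 83445 to 83486 in WT - UN and to 39335 to 41078 in WT - N4. In that sum the brightest genes weigh most, among them Igtp, which rose, and Ifi35 and Gbp2, which moved little. The median difference over the 43 was -1.95. The part of the other cells in the fall of these genes was not tested, and in bulk RNA fewer cells of a type and less RNA per cell cannot be told apart. The median over all genes shifted from -0.10 to 0.08 with quantile normalization and to 0.21 with centring on the median, and 34 and 32 of the 43 then fell.

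**Figure D3:**
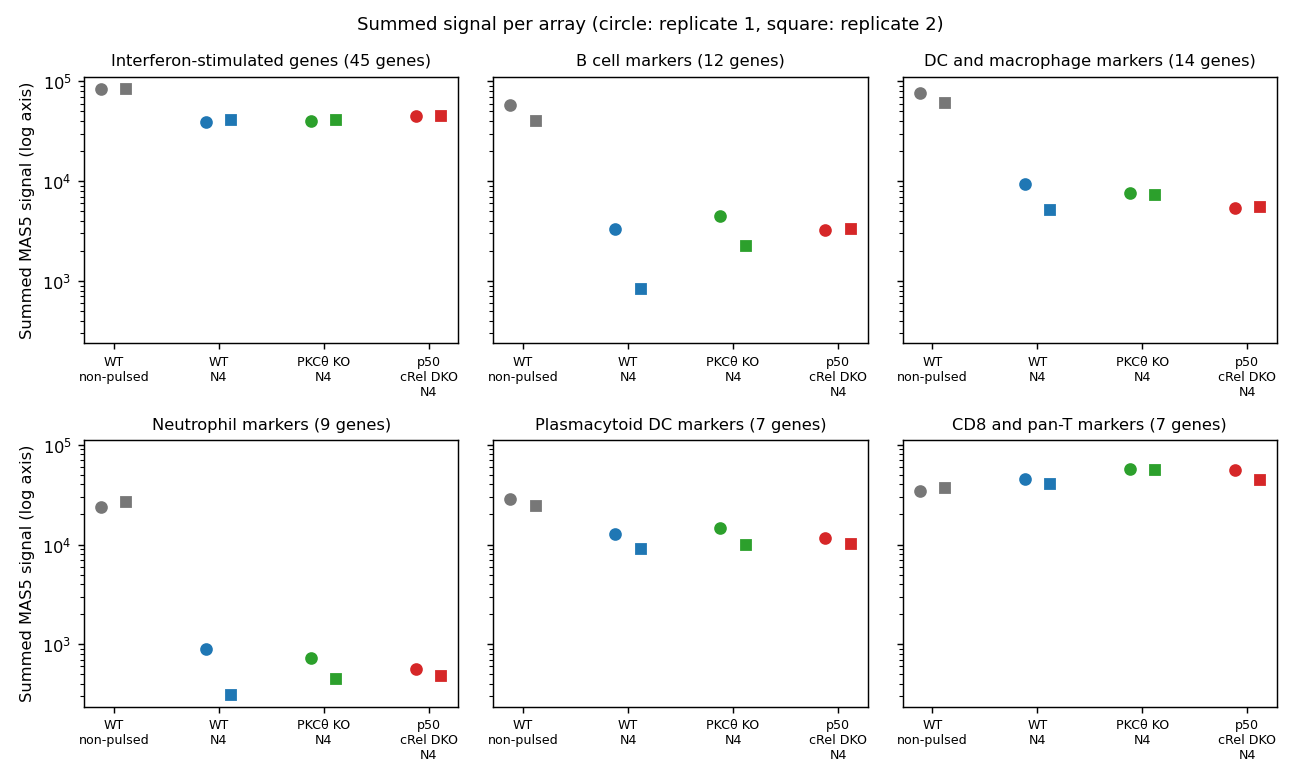
Summed signal of each marker list and of the interferon-stimulated genes on each array, by group, on a log axis, with WT - UN marked as WT non-pulsed. B cell, dendritic cell and neutrophil marker sums in the 2 WT - UN arrays lie above those of all 6 arrays with peptide, which is also where the interferon-stimulated genes sum highest (83445 and 83486).

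PKC theta KO - N4 was then set against WT - N4. None of the 43 genes passed limma's threshold, and 3 of 12520 genes (0.024%) did. At an unadjusted p under 0.05 there were 2 of the 43, Usp18 and Ifit1bl1, against 2.96% of all genes. The median difference over the 43 was 0.08, and the differences ranged from -0.58 to 0.96. Each gene had an adjusted p of 1.00 when rounded.

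The 5 genes with the lowest p in that comparison are given here, none of which passed. Usp18 read 8.51 and 9.55 without protein kinase C theta and 8.14 and 8.0 with it, a difference of 0.96 (SE 0.31). Replicate 2 of the knockout lay well above the other 3 arrays. Ifit1bl1 read 5.68 and 6.10 against 5.03 and 5.49, a difference of 0.63 (SE 0.25), with all 4 arrays near the filter level. Oas2 (-0.58), Tor3a (0.46) and Zbp1 (-0.26) followed. Of the transcription factors, Irf7 read 7.43 and 8.24 in the knockout against 7.50 and 7.86 in WT - N4, so the groups overlapped. Irf9 read 9.31 and 9.65, and Stat2 read 6.48 and 6.55. Against WT - UN, 35 of the 43 were lower in PKC theta KO - N4 and 2 were higher, Bst2 and Igtp, beside 24% lower and 16.5% higher over all genes. The summed B cell markers (2232 to 4456) and dendritic cell and macrophage markers (7271 to 7594) of PKC theta KO - N4 overlapped those of WT - N4 or lay inside their range. Gene by gene, all 12 B cell markers tested were above WT - N4 on average (median 0.65), without any passing. In 5 of these 12 both arrays lay above both of WT - N4, against 11.5% of all genes. Of 13 dendritic cell and macrophage markers, 5 were above and 8 below (median -0.08). The part of these shifts was not tested. The comparison with WT - UN shares its WT - UN arrays with the wild-type comparison. A p above the threshold with 2 arrays a group does not show that the cultures were alike.

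In p50 cRel DKO - N4, 6 of the interferon-stimulated genes were higher than in WT - N4 and none was lower. They were Ifit1bl1, Ifi213, Ifit3, Ifi209, Rtp4 and Epsti1, and each rose by more than 2-fold. Over all genes 0.248% rose and 0.272% fell. With the replicate number as a block the same 6 passed, while the genes called in either direction went from 65 to 200 of 12520 (1.60%). The median difference over the 43 was 0.18, against 0.00 over all genes, so most of the genes moved little. By role, the 6 comprise 2 of 9 IFIT and OAS genes, 2 of 13 other effectors and 2 of 8 sensors, with none of the ubiquitin group, the transcription factors or the GTPases.

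Ifit1bl1 read 8.84 and 9.0 in the double knockout and 5.03 and 5.49 in WT - N4. The difference was 3.66 (SE 0.25, n = 2 and 2, limma adjusted p = 0.000984). Ifi213 read 8.40 and 8.52 against 6.17 and 5.87, a difference of 2.44 (SE 0.24, limma adjusted p = 0.00404). In both genes the arrays of the double knockout lay close together and well above those of WT - N4.

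Ifit3 read 8.39 and 8.40 against 6.19 and 6.39, a difference of 2.11 (SE 0.24, limma adjusted p = 0.0102). Ifi209 read 10.40 and 10.52 against 8.18 and 9.01, a difference of 1.86 (SE 0.26, limma adjusted p = 0.0227), and was the most uneven of the 6 in WT - N4. Ifi209 and Ifi213 are neighbours in the AIM2-like cluster and similar in sequence, and Ifit3 and Ifit1bl1 also have close copies in their family, so how far these probe sets separate the copies is uncertain. Rtp4 read 9.12 and 8.77 against 7.14 and 7.24, a difference of 1.76 (SE 0.22, limma adjusted p = 0.0129). Epsti1 read 10.28 and 10.33 against 9.09 and 9.04, a difference of 1.24 (SE 0.17, limma adjusted p = 0.0195). In none of the 6 did any array of the double knockout overlap one of WT - N4.

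**Figure D4:**
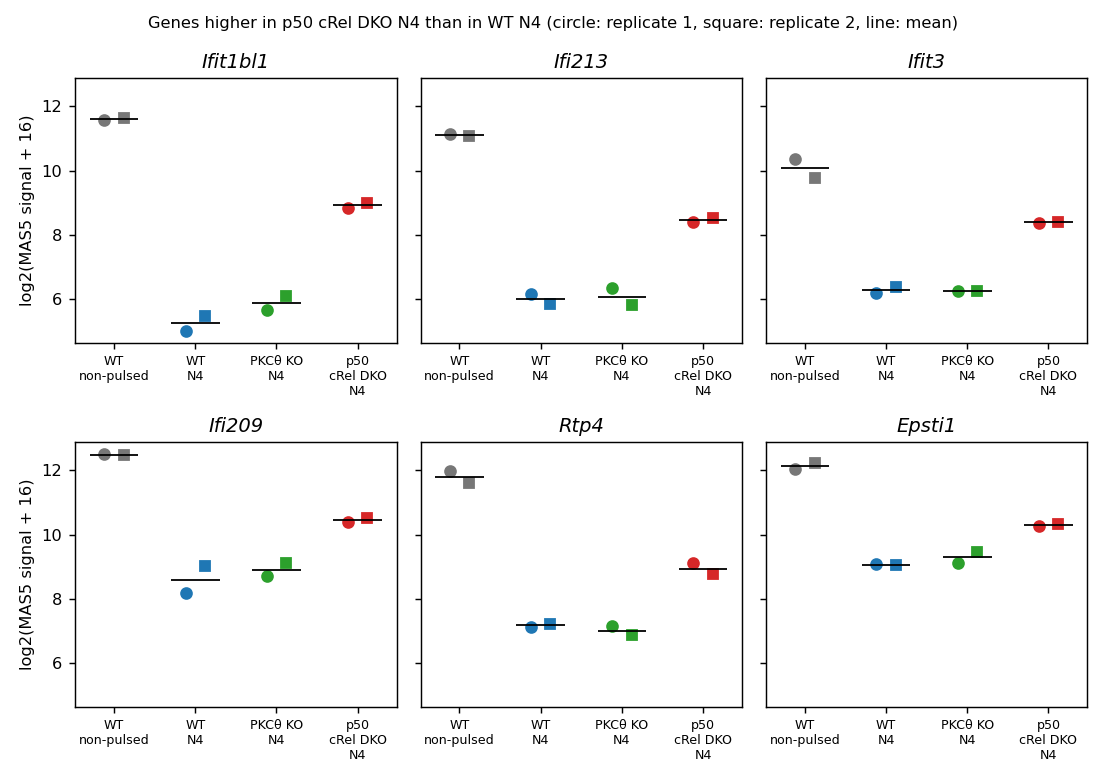
Level, as log2(signal + 16), of the 6 genes that rose in p50 cRel DKO - N4 against WT - N4, with 1 point for each array and a bar at the group mean. For Ifit1bl1 the double knockout arrays (8.84 and 9.0) lie between WT - UN (11.56 and 11.65) and the arrays of WT - N4 (5.03 and 5.49).

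All 6 remained lower in the double knockout than in WT - UN, with differences from -2.85 for Rtp4 to -1.68 for Ifit3, and each of these differences passed. Those of Ifit1bl1 and Ifi213 were -2.68 and -2.64. Across the 43, 35 were lower than in WT - UN and 1, Igtp, was higher, beside 22.8% lower and 16.5% higher over all genes. The double knockout has the same peptide arrays in both comparisons, and its differences from WT - N4 and from WT - UN are not independent.

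Other genes of the list were higher in the double knockout without passing. Isg20, a nuclease that degrades single-stranded RNA, read 7.68 and 7.62 against 6.85 and 7.01, a difference of 0.71 (limma adjusted p = 0.349). Oas2 differed by 0.88 and Ifit1 by 1.27 (SE 0.44), whose WT - N4 arrays were 5.44 and 6.75. Irf7 read 8.80 and 8.52 against 7.50 and 7.86, a difference of 0.98 (SE 0.32, limma adjusted p = 0.468). Irf9 read 9.61 and 9.97, and Stat2 6.40 and 6.54, each close to or overlapping WT - N4. Both arrays of the double knockout lay above both of WT - N4 in 20 of the 43, against 15.3% of all genes. They lay below in 2, Samhd1 and Bst2, also against 15.3% of all genes.

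The calls in the double knockout depend on single arrays. Without p50 cRel DKO - N4 replicate 1, or without its replicate 2, Ifit1bl1 was the 1 gene that passed. Without WT - N4 replicate 1, 2 passed (Ifit1bl1 and Ifi213), and without its replicate 2, 4 passed. In each of these fits the remaining array of the group is assumed to vary like the other groups. Ifit1bl1 passed under all 13 alternatives run. Other probe sets of the 6 differed in the same direction but mostly by less: the other Ifi209 probe set by 1.33, the other Ifi213 probe set by 0.62, and those of Epsti1 by 1.31, 0.52 and 0.06. A dim probe set of Rtp4 differed by 0.24. With the mean over the probe sets of each gene in place of the brightest, 4 passed, without Epsti1 and Ifi213.

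No B cell, dendritic cell and macrophage, or neutrophil marker passed in p50 cRel DKO - N4 against WT - N4. The B cell marker sum was 3267 to 3301, within the 836 to 3301 of WT - N4, and the dendritic cell and macrophage sum was 5363 to 5513, within its 5155 to 9310. Gene by gene, 8 of 12 B cell markers were above WT - N4 on average and 4 below (median 0.45). In 5 of these 12 both arrays lay above both of WT - N4, against 15.3% of all genes, and in none below. Of the dendritic cell and macrophage markers, 10 of 13 were below WT - N4 on average (median -0.49). In 7 of these 13 both arrays lay below both of WT - N4, also against 15.3% of all genes. Of 7 plasmacytoid dendritic cell markers, 1 rose: Ccr9, a homing receptor that T cells also express, read 8.28 and 8.49 against 5.78 and 6.60. Siglech, the defining marker of those cells, read 6.48 and 6.19 against 4.96 and 5.40, and did not pass. The summed signal of the list was 10085 to 11709, within the 9036 to 12824 of WT - N4. In that sum the brightest gene, Irf8 (13.14 and 12.93 in the double knockout), weighs most. Gene by gene, 5 of the 7 were above WT - N4 on average and 2 below (median 0.71). In 3 both arrays lay above both of WT - N4 and in 1 below, each against 15.3% of all genes. The part of these markers in the rise was not tested.

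The double knockout was also compared with PKC theta KO - N4, which shares the peptide but lacks a different protein. Of the 43, 4 were higher and none was lower, beside 0.24% higher over all genes. Ifit1bl1 differed by 3.03 (SE 0.25, limma adjusted p = 0.00361), Ifi213 by 2.37 (SE 0.24, 0.00823), Ifit3 by 2.12 (SE 0.24, 0.0142) and Rtp4 by 1.92 (SE 0.22, 0.0140). The arrays behind these differences in PKC theta KO - N4 were 5.68 and 6.10 for Ifit1bl1, 6.34 and 5.82 for Ifi213, 6.27 and 6.28 for Ifit3, and 7.15 and 6.89 for Rtp4. All lay below both double knockout arrays.

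Epsti1 differed by 1.01 (limma adjusted p = 0.0504) and Ifi209 by 1.54 (limma adjusted p = 0.0555), just outside the threshold. Oas2, at 6.88 and 7.05 in the double knockout and 5.64 and 5.39 in PKC theta KO - N4, differed by 1.45 (limma adjusted p = 0.100). With the replicate number as a block, 7 genes passed, with Epsti1, Ifi209 and Oas2 added, and the genes called in either direction went from 54 to 152 of 12520. Without either array of the double knockout, none passed in the limma fit. Without PKC theta KO - N4 replicate 1, 3 passed, and without its replicate 2, 2 passed. The test of this comparison is also the test of whether the 2 knockout effects differ, since both are taken against the same WT - N4 arrays.

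Of the 5 genes that rose in the double knockout and have a promoter in the table, 3 held the ISRE-type match: Ifit1bl1, Ifit3 and Ifi213, whose windows are printed above. The windows of Ifi209 and Epsti1 did not. Among the 28 genes with a promoter that did not pass, 12 held it. In WT - N4 against WT - UN, the match was in 9 of the 26 that fell, in both of the 2 that rose, Bst2 and Igtp, and in 4 of the 5 that did not pass.

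The rest of the pathway was read from lists of genes outside the 47. The ligands were mostly dim, and 4 of 17 were tested. Ifng, interferon gamma, read 5.58 and 7.79 in WT - UN and 13.45 and 12.45 in WT - N4, a rise of 6.26 (SE 0.64, limma adjusted p = 0.000160). In p50 cRel DKO - N4 it read 11.80 and 11.86, a difference of -1.12 that did not pass, and in PKC theta KO - N4 13.81 and 12.83. Ifnb1, interferon beta, lay between 4.90 and 6.24 on all 8 arrays, and its difference with peptide of -0.49 did not pass.

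Of 23 receptors, kinases, transcription factors and inhibitors tested, 3 rose and 11 fell with peptide in wild-type cultures, beside 17.2% and 23.5% of all genes. Those that rose were the transcription factors Irf4 (1.54) and Stat3 (0.44) and the phosphatase Ptpn2 (0.61). Both chains of the type I receptor fell, with differences of -1.39 for Ifnar1 and -1.25 for Ifnar2. Il10rb, a chain shared by the interferon lambda receptor, fell by 2.23 on the log2 scale. Of the transcription factors, both Irf2 (-1.79) and Irf5 (-2.71) fell. Irf1, a factor induced mainly by interferon gamma, read 11.64 and 12.18 without peptide and 11.54 and 11.38 with it, and did not pass. Irf3 (-0.35) and the inhibitor Socs1 (0.58) did not pass either.

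Of 13 genes of nucleic acid sensing upstream, 6 fell and 1 rose, beside 23.5% and 17.2% of all genes. Unc93b1, which delivers Toll-like receptors to endosomes, differed by -3.67, Tlr7, an endosomal RNA receptor, by -3.40, and the kinase Ikbke by -2.68. Cgas, a sensor of cytosolic DNA, rose by 1.02. Unc93b1, Tlr7 and Ikbke are also expressed by B cells and dendritic cells, whose markers fell in the same comparison. The part of those cells in these differences was not tested.

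Of 39 further interferon-stimulated genes outside the 47, 22 fell and 2 rose, beside 23.5% and 17.2% of all genes. The 2 that rose were Pnpt1, an RNA-degrading enzyme of mitochondria (0.77), and Mlkl, which carries out necroptosis (0.78). Uba7, the enzyme that starts ISG15 conjugation, read 10.37 and 10.19 without peptide and 6.53 and 6.36 with it, a fall by 3.84 on the log2 scale (SE 0.22). Trim34a, Trim12c and Sp100 differed by -3.73, -2.46 and -2.32. None of these lists had a member that passed in either knockout against WT - N4 in the limma fit. The nearest in the double knockout were Trim34a, at 8.92 and 9.15 against 7.92 and 7.72 (1.21, limma adjusted p = 0.0677), and Jak2, at 10.35 and 10.55 against 11.27 and 11.77 (-1.07, limma adjusted p = 0.0924).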

How the data were processed

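CD8 T cell RNA of 4 groups, 2 arrays each, was measured on Affymetrix mouse arrays. The authors deposited a linear signal intensity for each of 45101 probe sets, for which the submitters' processing notes list GCOS 1.4 and MAS5. The sources used here give no scaling target. The members and gene lists were chosen with earlier results of these data known.

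Here 64 control probe sets were left out, values were turned into log2(signal + 16), and probe sets with a mean at or above the 40th percentile (5.38; 27022 probe sets) were kept. Of all probe sets, 34945 name 1 gene symbol and 932 several, and the latter named no gene; 34741 symbols were updated through Entrez identifiers to RefSeq names (GRCm38.p6). Each gene was represented by its probe set of highest mean, giving 12520 genes. limma 3.58.1 in R 4.3.3 fitted 4 group means on all 8 arrays with an intensity trend in the variance (4 residual degrees of freedom), adjusting p-values by Benjamini-Hochberg at 0.05. The script was tested on simulated data. The number of arrays limits the precision.

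Replicate numbers come from the titles, where 1 set carries no number and the other is marked 2. Same-numbered arrays deviated together in all 6 pairs of groups (correlation 0.25 to 0.58), so the numbers were taken to pair the samples. The labels do not state this pairing, and the main fit left it out. A fit with the number as a block was run beside it. All 47 genes are accounted for; text names those past the threshold (up to 12 in each direction), those against the majority, Irf7, Irf9 and Stat2, and the 5 lowest p where under 5 passed. From each pathway list up to 4 genes and fixed pathway genes are named. Alternatives covered normalization, centring, the added constant, the filter, the choice of probe set, the arrays fitted, the block and leaving out each array.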

Additional observations from a re-analysis of the deposited data

Results flagged for a closer look

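Between the 2 knockout genotypes, 4 genes differed in cultures with peptide. The effect of losing p50 and cRel was larger than the effect of losing protein kinase C theta by 3.03 for Ifit1bl1, 2.37 for Ifi213, 2.12 for Ifit3 and 1.92 for Rtp4 on the log2(signal + 16) scale, in limma's test of that difference (adjusted p from 0.00361 to 0.0142). None passed without either array of the double knockout. The explanation was not tested.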

How the results depend on the processing

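No median over the 43 genes changed direction under scaling, filter, block or probe set alternatives. With quantile normalization the median was -1.62 for PKC theta KO - N4 and -1.49 for p50 cRel DKO - N4 against WT - UN. Centring gave -1.65 for WT - N4, -1.49 for PKC theta KO - N4 and -1.36 for the double knockout, and adding 64 gave -1.58 for PKC theta KO - N4, all against WT - UN. With the replicate block, 7 genes in place of 4 passed between the knockouts, and no other count among the 43 moved by over 1.5 times. Over all genes the block took the calls from 65 to 200 for the double knockout against WT - N4 and from 54 to 152 between the knockouts.

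Leaving out each array in turn gave 31 to 36 genes for WT - N4, 32 to 36 for PKC theta KO - N4 and 30 to 35 for the double knockout against WT - UN (medians -2.28 to -1.80, -2.14 to -1.62 and -1.78 to -1.51). Against WT - N4 it gave 0 to 0 for PKC theta KO - N4 (median -0.05 to 0.17) and 1 to 4 for the double knockout (0.15 to 0.25). Between the knockouts it gave 0 to 3 (0.13 to 0.31). Dim probe sets compress changes near the added constant of 16, and 2 arrays a group limit what can pass.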
